A study of Mus musculus with 6 samples.

Results

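A set of 9 genes measured in sorted neural crest cells (NCCs) is described here: the pigment cell genes Tyr, Tyrp1, Dct, Pmel, Mlana and Kit, the factors Mitf and Tfec, and Gpnmb. They are 9 of the 46983 genes in the count table, found by matching Ensembl identifiers to GENCODE M21 names. They were chosen by earlier values of this same deficient-to-control contrast, so every comparison of the members between groups below is a description without a test. RNAseq was run on GFP+ cells collected by FACS from E11.25 mouse embryos, 3 control and 3 BAF155/170-deficient samples, for which the study's methods name 3 embryos in each group. Every embryo carried Wnt1 Cre/+ and Rosa26 mTmG/+, in which Cre recombinase switches the cell and its descendants to GFP. The control was BAF155 flox/+;BAF170 flox/+ and the deficient group was BAF155 flox/flox;BAF170 flox/flox, so the control too had lost 1 copy of each gene in the labelled cells. Wnt1 Cre is not restricted to the neural crest, since it is also active in the dorsal neural tube. The question asked of the 6 libraries was whether Gpnmb and Mitf followed the pigment cell genes and the neural crest or the level of macrophage RNA.

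Melanoblasts, the precursors of pigment cells, arise from the neural crest. Sox10 and Pax3 act upstream of Mitf in these cells, and Mitf in turn activates the genes for the melanin enzymes Tyr, Tyrp1 and Dct and for the melanosome proteins Pmel and Mlana, while the receptor Kit supports melanoblast survival and migration. Mitf, Tfec, Tfeb and Tfe3 form the MiT-TFE family of basic helix-loop-helix factors, and these also work outside pigment cells, in macrophages and osteoclasts among others. Gpnmb is a transmembrane glycoprotein related to Pmel that is made by pigment cells and, in large amounts, by activated macrophages and osteoclasts. Tissue macrophages of the early embryo come from yolk sac and blood progenitors, not from the neural crest.

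The E-box CATGTG is the core of the M-box, the element through which Mitf is known to act on the melanin enzyme genes. In the RefSeq promoter table of build GRCm38.p6, 7 of the 9 members had an entry, with 10 starts among them. The 250 bases before the start of Tyr, of Dct and of Gpnmb are shown so that the enzyme genes can be set beside Gpnmb, each 5′ to 3′ on the strand of the gene, with CATGTG or its reverse CACATG in capitals. They lie at chr7:87493513-87493762 on the minus strand, chr14:118052247-118052496 on the minus strand and chr6:49036268-49036517 on the plus strand.
Tyr: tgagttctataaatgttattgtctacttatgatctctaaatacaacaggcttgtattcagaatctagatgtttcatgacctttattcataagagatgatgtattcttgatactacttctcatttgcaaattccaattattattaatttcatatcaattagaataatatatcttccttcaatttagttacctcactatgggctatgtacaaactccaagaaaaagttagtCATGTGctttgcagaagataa
Dct: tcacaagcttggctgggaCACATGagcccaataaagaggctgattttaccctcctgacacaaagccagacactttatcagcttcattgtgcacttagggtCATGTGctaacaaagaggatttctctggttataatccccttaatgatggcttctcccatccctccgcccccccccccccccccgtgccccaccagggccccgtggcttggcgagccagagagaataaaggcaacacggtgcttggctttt
Gpnmb: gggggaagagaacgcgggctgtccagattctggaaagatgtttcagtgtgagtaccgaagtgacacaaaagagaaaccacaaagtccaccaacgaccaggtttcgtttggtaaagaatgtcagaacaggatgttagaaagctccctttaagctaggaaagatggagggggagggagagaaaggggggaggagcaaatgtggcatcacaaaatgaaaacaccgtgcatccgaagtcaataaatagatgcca
Tyr held 1 match, 21 bases before the start, and Dct held 2, at 150 and 232 bases before it. Tyrp1 held 1 match 46 bases before its start. Gpnmb, Mitf, Tfec and Kit held none in this window, for any of their starts. By letters alone 12.25% of the 32851 starts in the table hold CATGTG on either strand within 250 bases, so a match in a single promoter is common. None of the 7 members held the palindromic E-box CACGTG or the PU.1 type letters GAGGAAGT (reverse ACTTCCTC), which 6.02% and 2.44% of the starts hold. A match is a stretch of letters and not evidence of binding, and the absence of one says nothing of the factor.

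Counts per library ran from 8191219 to 19808620, with the 3 deficient libraries all above the 3 controls. Values in CPM are counts per 1000000 on TMM library sizes, and levels of different members are compared only per kilobase of GENCODE M21 exon. Gene coordinates are those of GENCODE M21 on GRCm38. Smarcc1, which encodes BAF155, stood at 35.1 to 55.0 CPM in the controls and 24.5 to 29.4 CPM in the deficient libraries, and Smarcc2, which encodes BAF170, at 89.9 to 92.9 and 82.3 to 86.8 CPM, while counts per gene do not separate the deleted exons. Smarcc1 was called lower (log2 fold change −0.71, adjusted p = 0.0676) and Smarcc2 was not (−0.11, adjusted p = 0.251, edgeR with Benjamini-Hochberg adjustment). Labelled as NCCs, the libraries held every one of 22 mesenchymal and glial crest markers, but at a low sum of 59.9 to 190.5 CPM. The sum of 12 macrophage markers, from Ctss and Lyz2 to Csf1r and Adgre1, was 12124 to 15476 CPM in the same libraries, on a scale that is not corrected for gene length. That macrophage sum was 12124 to 14056 CPM in the controls and 14188 to 15476 CPM in the deficient libraries, so the groups did not overlap. The crest sum ran the other way and did not overlap either, at 106 to 190.5 CPM in the controls and 59.9 to 91.6 CPM in the deficient libraries. The part of these shifts in any member's difference between the groups was not tested. In bulk RNA, fewer cells of a type and less RNA per cell cannot be told apart.

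The melanin enzymes were close to absent from all 6 libraries. Tyr (chr7:87424771-87493512, minus strand), the tyrosinase that starts melanin synthesis, had 0, 1 and 3 counts in control replicates 1 to 3 and 0, 0 and 1 in deficient replicates 1 to 3. Tyrp1 (chr4:80834123-80851719, plus strand), a related oxidase, had a single count, in control replicate 2. Dct (chr14:118012790-118052244, minus strand), the dopachrome tautomerase that is among the first melanin genes switched on in melanoblasts, had 0, 8 and 2 counts in the controls and 1, 2 and 2 in the deficient libraries. Of its 15 counts, 8 came from control replicate 2, the library with the highest crest sum (190.5 CPM). Control replicate 1, with the next highest crest sum (141.9 CPM), had 0. Pooled over a group, Dct stood at 0.339 per 1000000 counts in the controls (95% exact Poisson interval 0.162 to 0.623, n = 10 counts) and 0.102 in the deficient libraries (0.0331 to 0.238, n = 5 counts), and these intervals overlapped. The 0 counts of Tyrp1 among the 48998965 of the deficient group allow up to 0.0753 per 1000000 counts (upper end of the 95% exact Poisson interval). These intervals and limits cover counting error only.

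The melanosome proteins had few counts as well. Pmel (chr10:128704195-128720238, plus strand), the fibril protein of the melanosome, had 1, 5 and 14 counts in the controls and 3, 6 and 10 in the deficient libraries. It was the only one of the 5 pigment genes with a count in every library, and the groups overlapped. Its exons overlap those of Cdk2 and Dgka on the opposite strand, which had 653 and 5373 counts in all; the strand setting of the counting is not given in the sources used here, so the Pmel counts are uncertain. Mlana (chr19:29697824-29708634, plus strand), a small membrane protein of the melanosome, had 3 counts in control replicate 1, 6 in deficient replicate 3 and 0 in the other 4 libraries. These 5 genes together gave 38 counts in the controls and 31 in the deficient libraries, and none passed the filter on low counts. Per library they summed to 4, 15 and 19 counts in the controls and 4, 8 and 19 in the deficient libraries.

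**Figure D1:**
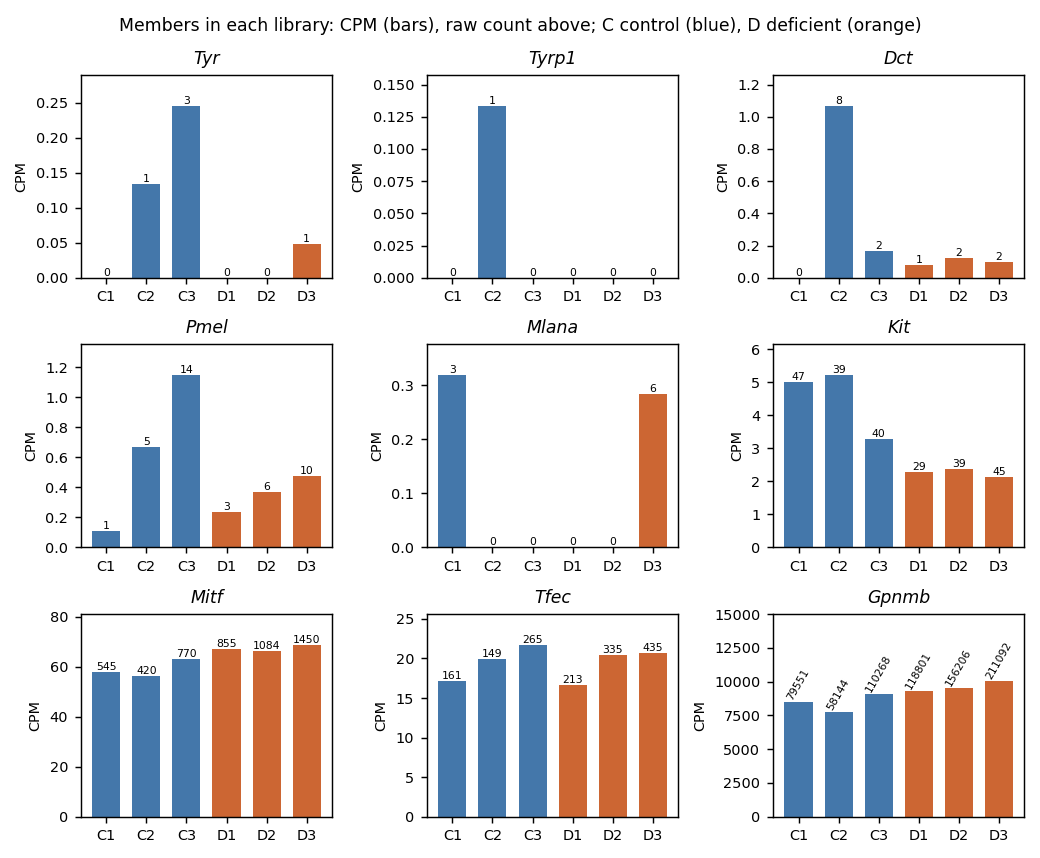
Level of each of the 9 genes in CPM (bars, linear axis from 0) in control (C1 to C3, blue) and deficient (D1 to D3, orange) libraries, with the raw count above each bar. Tyr, Tyrp1, Dct, Pmel and Mlana rest on 0 to 14 counts a library, Kit on 29 to 47, while Gpnmb has 58144 to 211092.

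Set against the crest markers of the same library, the 5 pigment genes did not separate the groups. Per 1000 crest marker counts they gave 3.00, 10.5 and 14.8 counts in the controls and 3.42, 8.11 and 15.1 in the deficient libraries. Pooled, that was 9.40 against 9.07, a ratio of 0.965 with a 95% counting interval of 0.581 to 1.59. Of these 69 counts 39 are from Pmel, whose counts are uncertain: Pmel alone had a ratio of 1.12 (0.568 to 2.22) and Dct alone 0.592 (0.159 to 1.90). Against macrophage marker counts the same genes gave 33.0, 166 and 111 per 1000000 in the controls and 22.1, 33.0 and 58.3 in the deficient libraries. The pooled ratio was 0.417 (0.251 to 0.689), but deficient replicate 3 and deficient replicate 2 lay above the lowest control, so the groups overlapped. Within each group the per-library values spread more widely than the pooled counts differed on the crest scale.

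Kit (chr5:75574916-75656722, plus strand), the receptor tyrosine kinase of melanoblasts that is also found on blood progenitors and mast cells, was lower in the deficient libraries relative to library size. It had 47, 39 and 40 counts in the controls and 29, 39 and 45 in the deeper deficient libraries. Scaled, this was 4.999, 5.22 and 3.28 CPM against 2.27, 2.38 and 2.14 CPM, or 4.50 ± 1.06 against 2.26 ± 0.123 (SD, n = 3 each). Every control library was above every deficient library. The log2 fold change was −0.98 with a standard error of 0.27 (edgeR). Of all 13961 tested genes, 4.88% were called lower and 0.0573% higher (mean of 2 CPM or more, change of 0.58 or more on the log2 scale, and Benjamini-Hochberg adjusted p up to 0.1). Kit was the 1 member called, of 4 that passed the filter on low counts, and since this contrast chose the members, nothing is read from that count. Kit was not called when control replicate 1 (log2 fold change −0.89), control replicate 2 (−0.86), deficient replicate 2 (−1.01) or deficient replicate 3 (−0.94) was left out.

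Within a library, Kit differed between the groups relative to the macrophage markers, and its ratio to the crest markers overlapped between them. Per 1000 crest marker counts there were 35.2, 27.4 and 31.1 Kit counts in the controls and 24.8, 39.5 and 35.7 in the deficient libraries. The groups overlapped, and the log2 ratio differed by 0.07 against SDs of 0.18 and 0.35 (n = 3 each). Per 1000000 macrophage marker counts there were 387, 430.3 and 234 Kit counts in the controls and 160.1, 161 and 138 in the deficient libraries, with no overlap and a log2 difference of −1.15. Kit is not a marker of 1 cell type. Of 9 listed markers of mast cells and blood progenitors, 4 passed the filter and none was called. The list did not go one way. Of 29515983 control and 48998965 deficient counts, the mast cell genes Cpa3 and Fcer1a took 14 and 2 in control and 33 and 14 in deficient libraries, Ms4a2 took 11 and 3, and Cma1 took 0 and 2. Hdc (log2 fold change 0.16), Myb (−0.14) and Cd34 (−0.39) were not called. Gata2, a factor of both blood progenitors and mast cells, had 2.13, 3.34 and 2.05 CPM in control and 1.17, 0.978 and 1.33 CPM in deficient libraries (log2 fold change −1.08 ± 0.35 (SE), adjusted p = 0.0952, edgeR with Benjamini-Hochberg adjustment), under the mean of 2 CPM a call needs. The part of such cells in the Kit counts was not tested.

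Mitf (chr6:97807052-98021349, plus strand), the melanocyte master factor, had a level per kilobase far above those of its pigment targets in the same libraries. It had 545, 420 and 770 counts in the controls and 855, 1084 and 1450 in the deficient libraries. Scaled, this was 58.0, 56.2 and 63.2 CPM against 67.0, 66.2 and 68.8 CPM, or 59.1 ± 3.64 against 67.3 ± 1.35 (SD, n = 3 each). The groups did not overlap, with a log2 fold change of 0.19 (SE 0.07), and it was not called. RefSeq gives Mitf 3 starts, and the counts per gene do not tell its isoforms apart. A processed pseudogene, Gm15531, lies antisense in an intron of Mitf and had 8 counts in all.

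Tfec (chr6:16833373-16898441, minus strand), the family member best known from macrophages, had 161, 149 and 265 counts in the controls and 213, 335 and 435 in the deficient libraries. At 17.1, 19.9 and 21.7 CPM against 16.7, 20.5 and 20.7 CPM the groups overlapped, and the log2 fold change of −0.02 (SE 0.12) changed sign with the scaling (0.04 with library totals). The other 2 factors of the family were not called. Tfeb stood at 21.01 ± 3.24 CPM in the controls and 24.3 ± 0.112 CPM in the deficient libraries, with an adjusted p of 0.264, and Tfe3 at 68.1 ± 3.94 and 76.9 ± 5.04 CPM, with an adjusted p of 0.149 (SD, n = 3 each, edgeR with Benjamini-Hochberg adjustment).

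Gpnmb (chr6:49036546-49070929, plus strand) was the most abundant member by a wide margin and ranked 6 among all 46983 genes by its mean CPM, which also grows with gene length. It had 79551, 58144 and 110268 counts in the controls and 118801, 156206 and 211092 in the deficient libraries. A single gene thus took between 0.710% and 1.07% of all counts of a library. Scaled, the control libraries had 8461, 7778 and 9049 CPM against 9304, 9544 and 10022 CPM in the deficient ones, or 8429.5 ± 636 against 9623 ± 365 (SD, n = 3 each). The groups did not overlap, with a log2 fold change of 0.19 (SE 0.08) and no call. Gpnmb was lowest in control replicate 2, where the crest sum was highest, and highest in deficient replicate 3, where the crest sum was lowest. These were also the libraries with the fewest and the most counts, 8191219 and 19808620. Over all libraries the CPM of Gpnmb and the macrophage sum rose, and the crest sum fell, in the order of the total counts. Depth and group cannot be told apart here, and the part of depth was not tested.

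Over all tested genes, 15.0% were higher without overlap between the groups and 16.4% were lower without overlap, and by the adjusted p alone 4.18% were higher and 7.75% lower. Among the members Gpnmb and Mitf were higher and Kit lower without overlap. With edgeR on all 6 libraries Kit passed the adjusted p alone in the lower direction, and neither Gpnmb nor Mitf did in the higher direction. Gpnmb did with DESeq2 and with limma-voom, and Mitf did with no filter on low counts. Both did without control replicate 3 and with a block for the replicate number. Nothing is read from these counts, since the same contrast chose the members.

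Per kilobase of exon, the members ranged over several orders of magnitude. Gpnmb had 1294 CPM per kilobase in the controls and 1477 in the deficient libraries, Mitf 9.54 and 10.9, Tfec 3.50 and 3.44, Kit 0.505 and 0.254, and Pmel 0.280 and 0.157. Mlana followed at 0.101 and 0.0898, Dct at 0.0698 and 0.0167, Tyr at 0.0178 and 0.00223, and Tyrp1 at 0.0158 in the controls and 0 in the deficient libraries. From Pmel downwards the order rests on 1 to 39 counts a gene, and the counting intervals of neighbours there overlap when all 6 libraries are pooled. In the deficient group alone those of Mlana and Dct do not overlap. Gpnmb, Mitf, Tfec and Kit kept this order in each of the 6 libraries.

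The ratio of Gpnmb to the macrophage markers was nearly the same in all 6 libraries. The log2 of Gpnmb counts over the summed counts of the 12 markers was −0.61, −0.64 and −0.64 in the controls and −0.61, −0.63 and −0.63 in the deficient libraries. Gpnmb alone thus had 64.8 counts for every 100 counts of the 12 markers, as a geometric mean. The group means differed by 0.00526 on the log2 scale, less than the SD of 0.0137 over the 6 libraries. The 12 markers themselves, each set against the other 11, had SDs of 0.0129 to 0.121 (median 0.0246) and group differences of −0.04 to 0.06. The Gpnmb ratio was as even as the ratios of the markers to each other, although its SD of 0.0137 was wider than the SD of 0.00440 that counting error alone would give. With the median marker gene as the reference in place of the sum, the difference was 0.0235, above the SD of 0.0137 of the ratio to the sum.

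Against the crest markers the ratio of Gpnmb separated the groups. The crest sum in CPM did so by itself, so a gene of steady CPM can give such a separation too. The log2 ratio of Gpnmb to the 22 crest markers was 5.90, 5.35 and 6.42 in the controls and 6.67, 7.31 and 7.39 in the deficient libraries. Every deficient library was above every control, and the means differed by 1.23 with SDs of 0.54 and 0.39 (n = 3 each). The crest sum itself, relative to the macrophage sum, differed by −1.22 on the log2 scale, with SDs of 0.53 and 0.41. The 22 crest genes, set singly against the macrophage sum, had group differences of −2.34 to −0.48 (median −1.42), and Gpnmb at 0.00526 lay outside this range. Over all tested genes the median log2 fold change was −0.02, against 0.19 for the macrophage sum. A gene of little change thus lies outside this range too, and the share of all genes that do was not counted.

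For Mitf the values on both scales were close to those of Gpnmb. Its log2 ratio to the macrophage markers was −7.80, −7.75 and −7.80 in the controls and −7.73, −7.80 and −7.81 in the deficient libraries. The means differed by 0.00176, under the SD of 0.0340 over the 6 libraries and under the 0.0525 that counting error alone would give. To the crest markers the difference was 1.23, with no overlap between the groups. Tfec was in between, with a difference of −0.21 to the macrophage markers (SDs 0.16 and 0.12) and of 1.01 to the crest markers (SDs 0.52 and 0.53), and its groups overlapped on both. Such values were not particular to Gpnmb and Mitf. Rab32 and Tfe3 differed by −0.00039 and −0.0146 to the macrophage markers and by 1.22 and 1.21 to the crest markers. Zeb2 and Met differed by −0.14 and 0.24 to the macrophage markers and by 1.08 and 1.47 to the crest markers.

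**Figure D2:**
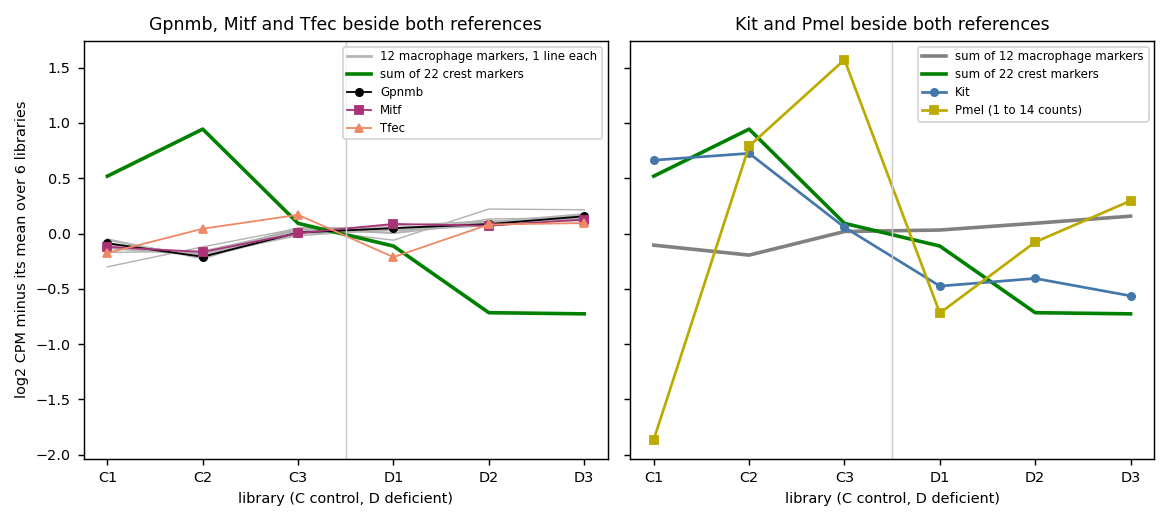
Level of each gene or marker sum on the log2 CPM scale minus its own mean over the 6 libraries, in control (C1 to C3) and deficient (D1 to D3) libraries. Left, Gpnmb lies within the band of the 12 macrophage markers (grey), and so does Mitf except in D1, where it lies just above, while the sum of 22 crest markers (green) lies higher in the controls; right, Kit lies nearer the crest sum, and Pmel, on 1 to 14 counts, scatters more widely than either reference.

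**Figure D3:**
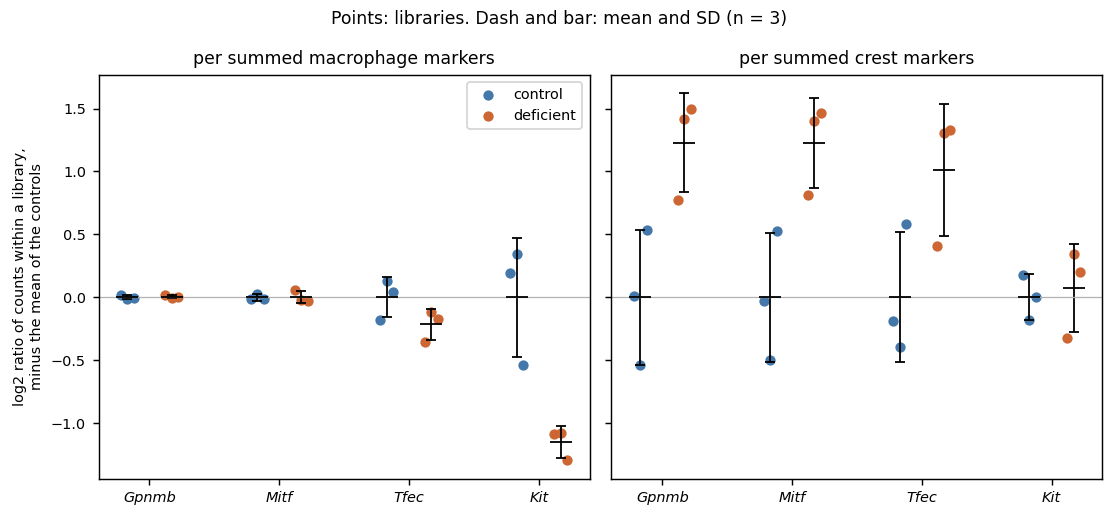
Within-library log2 ratio of the counts of Gpnmb, Mitf, Tfec and Kit to the summed macrophage markers (left) and crest markers (right), minus the mean of the controls; points are libraries, and the dash and bar are mean and SD (n = 3). Gpnmb and Mitf differ between groups by 0.00526 and 0.00176 on the left and by 1.23 each on the right, while Kit differs by −1.15 on the left and 0.07 on the right.

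Genes with nearly the same pattern as each member were sought among 11786 genes of at least 2 CPM, by the root mean square (RMS) difference of centred log2 CPM over the 6 libraries. For Gpnmb the nearest were Psap, Max, Sdcbp, Tmbim6 and Ctsb, at 0.00749 to 0.00918. Psap encodes the lysosomal precursor prosaposin and Ctsb the lysosomal protease cathepsin B. Of these genes Ctsb alone, and of the nearest to Mitf none, was on the macrophage or phagocyte lists used here. For Mitf the nearest were Fcgr2b, an inhibitory Fc receptor of myeloid and B cells, Ccrl2, Prr13, Agtrap and Cept1, at 0.00339 to 0.0117. For Kit they were Tmem201, Mphosph9, Qser1, Cd276 and Zscan2, at 0.0525 to 0.0896, and for Tfec Ndufa1, Ngrn, Txnl4b and the predicted genes Gm9845 and Gm6180, at 0.0365 to 0.0444. The distances of Mitf are under its own counting error of 0.0525, and those of Kit and Tfec are under theirs of 0.231 and 0.0946, so the order among the neighbours of these 3 genes is not resolved. The counting errors of the neighbours themselves were not set beside the distances, so the order for Gpnmb is not read either. These likenesses are descriptions over 6 libraries that share 1 contrast.

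The macrophage and phagocyte genes gave the background for Gpnmb. All 12 macrophage markers were tested and had a positive log2 fold change, with a median of 0.19 against −0.02 over all tested genes, and none was called. All 12 stayed positive when any 1 library was left out, with a median of 0.14 to 0.24. Adgre1, which encodes F4/80, had an adjusted p of 0.0924 with a log2 fold change of 0.22 ± 0.07 (SE, edgeR with Benjamini-Hochberg adjustment), and the other 11 did not pass. The most abundant were Ctss, a lysosomal protease, at 3592 ± 254 (control) and 4074 ± 204 CPM (deficient), and Lyz2, lysozyme, at 3244 ± 244 (control) and 3705 ± 165 CPM (deficient) (SD, n = 3 each).

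A list of 13 genes that phagocytes are known to switch on together with Gpnmb, such as Trem2, Spp1, Lpl, Apoe and the cathepsins, gave a median of 0.17 with 13 positive values and none called. Of these Fabp5 alone passed the adjusted p (log2 fold change 0.25, adjusted p = 0.0933, edgeR with Benjamini-Hochberg adjustment). Ctsb stood at 8085 ± 565 (control) and 9325 ± 382 CPM (deficient) and Apoe, the lipid carrier, at 5669.6 ± 459 (control) and 6414 ± 165 CPM (deficient) (SD, n = 3 each). Of 7 osteoclast markers, 6 were tested, all with positive values (median 0.19) and none called. Atp6v0d2, a subunit of the proton pump, stood at 149.6 ± 10.04 (control) and 168 ± 6.38 CPM (deficient), and Acp5, the acid phosphatase TRAP, at 45.6 ± 2.79 (control) and 53.0 ± 3.28 CPM (deficient) (SD, n = 3 each), whereas Calcr, the calcitonin receptor of mature osteoclasts, had 7 counts in all.

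Upstream of melanoblasts, 11 of 14 listed genes were tested, with a median log2 fold change of −0.77. Sox10, the crest factor that activates Mitf, fell from 4.36, 7.76 and 2.22 CPM in the controls to 1.49, 0.855 and 1.19 CPM in the deficient libraries, a log2 fold change of −1.99 ± 0.45 (SE, adjusted p = 0.0625). Lef1, a factor of Wnt signalling, fell by 1.40 on the log2 scale (adjusted p = 0.0534), and Tfap2a, a factor of early crest, by 1.27 (adjusted p = 0.0559, all edgeR with Benjamini-Hochberg adjustment). Pax3 (log2 fold change −0.77) and Snai2 (−1.41) were not called. Met, the receptor of hepatocyte growth factor, passed the adjusted p alone (log2 fold change 0.43, adjusted p = 0.0848), at 9.47 to 10.7 CPM in the controls and 13.2 to 14.1 CPM in the deficient libraries. Zeb2, Kitl, which encodes the Kit ligand, and Ednrb stood at means of 142, 39.4 and 23.3 CPM with log2 fold changes of 0.05, 0.18 and −0.01. None of the 3 calls held when replicate 1 or replicate 2 of the controls was left out, nor when replicate 2 or replicate 3 of the deficient group was.

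The crest markers were lower in the deficient libraries too. Of the 22 listed, among them Sox10, Foxd3 and Erbb3 from the list above, 18 were tested, all 18 had a negative log2 fold change (median −1.05), and 9 were called lower. Those with the largest log2 fold changes beside Sox10 were Alx4 (−2.26, adjusted p = 0.0483), Tfap2b (−1.70, adjusted p = 0.0583), Alx1 (−1.31, adjusted p = 0.0674) and Msx1 (−1.29, adjusted p = 0.0809, edgeR with Benjamini-Hochberg adjustment), transcription factors of the facial and other mesenchymal crest. Without control replicate 1 or deficient replicate 3 none of the 9 was called, without control replicate 2 Alx4 alone was called, and without deficient replicate 2 Alx4 and Tfap2b were. The median stayed between −1.29 and −0.80 when each library was left out in turn.

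Of 9 other pigment cell genes only Slc24a5, an ion exchanger of the melanosome, was tested, at 2.13 to 3.28 CPM (log2 fold change 0.12, not called). Its log2 ratio to the macrophage markers differed by −0.03 between the groups and that to the crest markers by 1.199. The rest had 0 to 38 counts over all libraries, with Gpr143 at 0 and Slc45a2 at 1. By contrast all 23 genes of melanosome biogenesis and transport, most of which serve lysosome-related organelles in many cells, were tested. Their median log2 fold change was 0.08, 15 were positive and none was called. Rab32, a small GTPase of this traffic, stood at 140.0 ± 12.9 (control) and 159 ± 8.98 CPM (deficient), and Ap3d1, a subunit of the adaptor AP-3, at 122 ± 9.64 (control) and 141 ± 8.29 CPM (deficient) (SD, n = 3 each). Taken over all pathway lists, the 48 genes listed for the pathway had 37 tested and 3 called, all lower and all from the upstream list.

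Markers of other possible sources were low or mixed. Of the retinal pigment epithelium and eye markers reported here, Rpe65, Rlbp1, Rax and Six6 had 2 to 7 counts in all, Ttr had 32, and Best1, Otx2 and Lhx2 were tested without a call. Lhx2 was the exception in level, at 82.9 to 110.3 CPM, and its log2 ratio to the macrophage markers differed by −0.03 between the groups. Of 9 erythroid markers 8 were tested with a median of −1.11 and none called, and of 7 endothelial markers 4 were tested with a median of 0.06 and none called. Their part in the members' values was not tested.

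**Figure D4:**
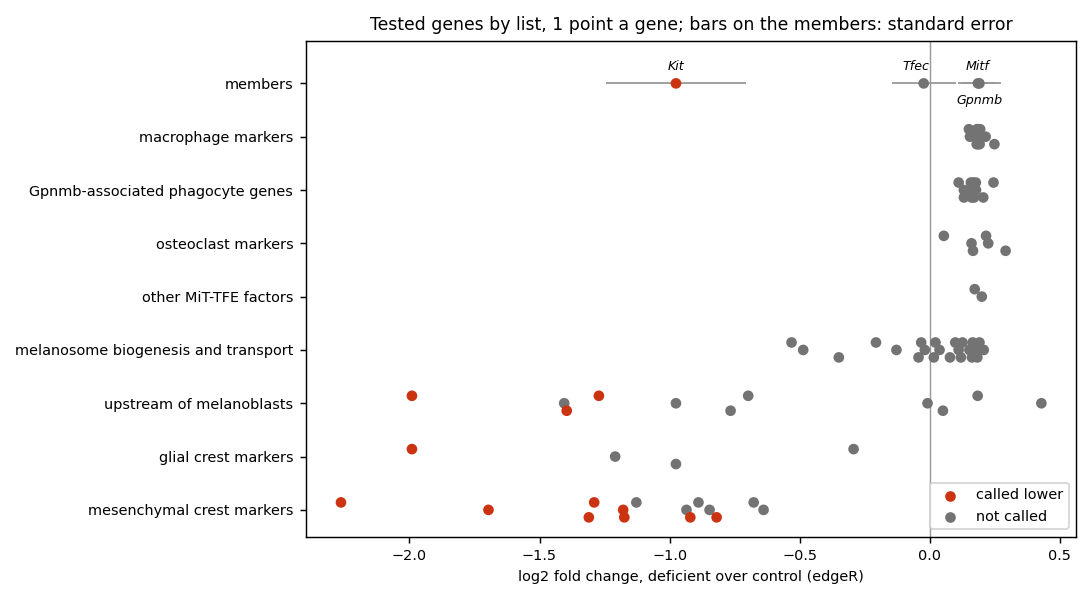
Log2 fold change of deficient over control for each tested gene, by list (1 point a gene, vertical offsets for legibility only), with standard errors on the 4 tested members. Gpnmb and Mitf, at 0.19 each, lie among the macrophage markers (0.15 to 0.25), Kit at −0.98 lies among the crest markers (−2.26 to −0.29), and Tfec lies near 0.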

How the data were processed

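GFP+ NCCs of 3 control and 3 BAF155/170-deficient samples were measured by strand-specific, poly(A) RNAseq. The authors trimmed the reads (cutadapt 1.18, with FastQC 0.11.7, per the submitters' processing notes), used STAR for alignment (GRCm38) and featureCounts for the counts of each gene. The deposited values are raw counts per gene. The annotation release, the strand setting and the treatment of reads with several places were not given in the sources used here. Of 46983 identifiers 46488 were named by GENCODE M21, ignoring the identifier version.

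Counts were filtered (filterByExpr, minimum count 10, minimum total 15), scaled by TMM and tested with the quasi-likelihood test of edgeR 4.0.16 in R 4.3.3, condition being the single term, over 13961 genes with Benjamini-Hochberg adjustment. The common biological coefficient of variation was 12.8%. The thresholds are those of the study's methods. The pipeline was tested on simulated data. Ratios are log2 of counts within a library, and intervals at 95% cover counting error only. Depth was 8191219 to 19808620 counts a library.

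The members and all lists were chosen with earlier results of these data known. Named are the members, the targeted genes, up to 4 called genes of each list (the 2 with the highest mean CPM where none was called), and the 5 nearest patterns of each member with a mean of at least 2 CPM. Other genes named were picked after their values were seen. A listed gene that is withheld is not reported here. Alternatives were DESeq2 1.42.0, voom of limma 3.58.1, library totals, other filters, the adjusted p alone, a block for the replicate number, other reference sums and each library left out in turn. Figures used Python 3.11.15 and matplotlib 3.10.9.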

Additional observations from a re-analysis of the deposited data

How the results depend on the processing

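The count of called genes was 689 in all, with 681 lower. It was 1665 by the adjusted p alone and ran from 0 to 1244 when each library was left out in turn: 0 without control replicate 1 (2479 genes at an unadjusted p under 0.05, edgeR), 61 without control replicate 2, 1244 without control replicate 3, 221 without deficient replicate 2 and 8 without deficient replicate 3. With DESeq2, limma-voom, library totals or another filter it was 675 to 1015. The count of members called, 1 (Kit), was 0 to 1 over the left-out libraries. The log2 fold change of Tfec was near 0 and changed sign, to 0.0352 with library totals, 0.0259 with no filter on low counts, 0.0598 without control replicate 3 and 0.0599 without deficient replicate 1; leaving out a library gave −0.11 to 0.0599. The same range was −1.18 to −0.86 for Kit, 0.14 to 0.24 for Gpnmb and 0.15 to 0.23 for Mitf. The group difference in the log2 ratio of Gpnmb to the macrophage markers ran from −0.00189 to 0.0148, and with the median marker as reference it was 0.0235. That of Mitf to the macrophage markers ran from −0.0254 to 0.0174. Against the crest markers the ranges were 0.96 to 1.495 for Gpnmb and 0.98 to 1.49 for Mitf. The 5 pigment genes, at 38 and 31 counts, allow no finer comparison at this depth.

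Control and deficient libraries with the same replicate number in their titles did not all deviate together (correlations of 0.0284, −0.0335 and 0.293 for replicates 1 to 3). Not every library correlated best with its own number. These correlations cannot settle whether the numbers pair the samples, since they are taken over deviations from means of 3 libraries. The column labels number the deficient libraries from 2 to 4, and the pairs they share, 2 and 3, had correlations of 0.261 and 0.000418. With the replicate number as a block 1164 genes were called, Kit being the 1 member among them, and 3 members passed the adjusted p alone (1 without the block). The cause was not tested.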

Other observations

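Several genes often read as markers of other cell types kept a near constant ratio to the macrophage markers in these libraries. Kdr, the VEGF receptor listed as an endothelial marker, stood at 165 to 203 CPM, while the endothelial genes Pecam1, Cdh5, Tie1, Emcn, Tek and Cldn5 had 450, 132, 79, 35, 30 and 25 counts in all. Its log2 ratio to the macrophage markers differed by −0.02 between the groups (SD over the 6 libraries 0.0296). Hdc, the histidine decarboxylase listed for mast cells, stood at 46.4 to 60.1 CPM with a difference of −0.02 (SD 0.0625), while the rest of that list had 2 (Cma1) to 142 (Cd34) counts. Lhx2, a factor of the developing eye and forebrain, stood at 82.9 to 110.3 CPM with a difference of −0.03 (SD 0.0669), while Otx2 had 361 counts, Best1 177 and Rax 5. The source of these counts was not tested.

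Globin genes were low in all 6 libraries. Hbb-y, a beta-like globin of primitive erythroid cells, stood at 9.47, 24.3 and 5.66 CPM in control and 3.60, 2.20 and 3.37 CPM in deficient libraries. Hba-x, its alpha-like partner, stood at 4.79, 18.9 and 3.53 CPM in control and 3.29, 1.41 and 2.42 CPM in deficient libraries. Both were highest in control replicate 2, and for neither did the groups overlap, but neither was called (adjusted p = 0.106 and 0.182, edgeR with Benjamini-Hochberg adjustment). Hbb-bs, an adult beta globin, stood at 4.47 to 6.29 CPM in control and 4.84 to 6.74 CPM in deficient libraries. Near-identical globin genes share reads, so these levels are uncertain.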
